A study of Homo sapiens with 12 samples.

Results

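The genes described here are the 34 members of the apoptosis machinery formed by the BCL2 family, the caspases with their adaptor FADD, the apoptosome and mitochondrial release factors, and the caspase inhibitors. They were chosen by symbol, matched to Ensembl gene identifiers, and all 34 were found among the 63677 genes listed and lie among the 17730 genes tested. Their RNA was measured in HCT116, a human colon carcinoma cell line, by sequencing poly(A) RNA of 12 cultures in 6 groups of 2. The mock cells went through transfection without siRNA, and the siControl cells received a non-targeting siRNA. The siTotal1 and siTotal2 cells each received 1 of 2 siRNAs against all NFYA transcripts. The siLong1 and siLong2 cells each received 1 of 2 siRNAs against the NFYA transcripts with the longest 3′ UTR. Each siRNA was used at 62.5 nM, and every culture, mock included, was harvested 72 hours after transfection. NFYA is a subunit of NF-Y, the factor that binds CCAAT in promoters. The labels describe the 2 libraries of a group as biological duplicates of 1 cell line, and a p-value here speaks only of variation among cultures of that line.

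Cells die by the mitochondrial route when BAX and BAK1 open pores in the outer membrane and cytochrome c leaves. Antiapoptotic BCL2 proteins hold those effectors closed, and BH3-only proteins such as BIK, PUMA and NOXA set them free or activate them. Released cytochrome c then assembles APAF1 and caspase-9, while caspase-8 and caspase-10 start the route from death receptors through FADD. XIAP and its relatives restrain caspases, and SMAC and HTRA2 restrain XIAP.

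The libraries held 35604197 to 49746637 assigned reads, and the common biological coefficient of variation was 3.57%. Mean reads per library ran from 48.3 for BMF to 12220.1 for BCL2L1 among the 34 genes, with a median of 1556.3 against 546.1 over all tested genes. Levels below are CPM, reads scaled to a common library total after TMM normalization, and ± after a log2 fold change is its standard error in edgeR's quasi-likelihood fit with 2 libraries a group. A gene was called where the Benjamini-Hochberg adjusted p over all tested genes was under 0.05. NFYA itself stood at 55.2 and 59.1 CPM in mock, 57.4 and 57.5 in siControl, 47.9 and 46.8 in siTotal1, 46.01 and 46.2 in siTotal2, 47.7 and 46.5 in siLong1 and 69.7 and 70.2 in the libraries labelled siLong2. Against siControl it was lower in siTotal1 (-0.28 ± 0.05), siTotal2 (-0.32 ± 0.05) and siLong1 (-0.29 ± 0.05), but higher in the libraries labelled siLong2 (0.28 ± 0.05). Those libraries go against their label at the level of the whole gene, and the deposited counts do not separate transcripts. Every direction below that involves siLong2, or the siLong average, carries that limit. Of the colon epithelium markers, KRT8, KRT18, KRT19 and EPCAM were high in every library, while CDX1 was at most 0.028 CPM and VIL1 at most 0.170 CPM.

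The 4 NFYA siRNAs are shown because the same sequences are read against the members' 3′ UTRs further on. Capitals mark the 7 bases that a target must hold to pair with bases 2 to 8 of the antisense strand. The labels list 2 sense strands per target without saying which belongs to group 1 or 2.
siTotal, listed first: acuagaggcagAAGGGAAa
siTotal, listed second: uggugaaggugGACGAUUu
siLong, listed first: agugaucauugUAGGGUAa
siLong, listed second: ggucauuccuuUAGCAUCa
Both siTotal sequences matched the coding sequence of both NFYA transcripts of GENCODE 29 (GRCh38, plus strand), at chr6:41093049-41093067 and chr6:41094443-41094461. The siLong sequences had no exact match in those 2 transcripts, and the labels place their targets in the longest RefSeq 3′ UTR.

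The apoptosis genes were spread widely and in both directions, with no member called alike in all 8 comparisons of 1 siRNA group with 1 control. Of the 34 genes, 30 were called in at least 4 of the 8, 20 were called higher in some and lower in others, 11 only higher and 3 only lower. Over all tested genes the same shares were 57.1% called in at least 4, 41% higher in some and lower in others, 22.9% only higher and 21.6% only lower. These and all later shares of all tested genes were not matched for read depth, which was higher in the members by the medians above. Calls in the same direction in all 8 were made for 0.874% of all tested genes (higher) and 0.508% (lower). Against siControl, 21 members were called for the siTotal average, 8 higher and 13 lower, where 44.2% of all tested genes were called (22% higher, 22.2% lower). For the siLong average 25 members were called, 15 higher and 10 lower, where 53.5% of all tested genes were called (25.1% higher, 28.4% lower). Against mock, 21 were called for siTotal, 14 higher and 7 lower, where 30.8% of all tested genes were called (16.6% higher, 14.2% lower). For siLong against mock 27 were called, 22 higher and 5 lower, where 50.8% of all tested genes were called (24.4% higher, 26.4% lower). Some siTotal calls against mock were lost when 1 library was left out, BAX for example at 0.08 without mock replicate 2. The members' median log2 fold change was -0.055 for siTotal and 0.096 for siLong against siControl, and 0.057 and 0.189 against mock. Over all tested genes those 4 medians lay between -0.015 and 0.003. In bulk RNA, fewer cells of a type and less RNA per cell cannot be told apart. Both mean comparisons treat the siRNA groups of a pair as fixed. With each siRNA group counted as 1 replicate, edgeR called 0 members for siTotal against siControl (1 at an unadjusted p under 0.05, 0 by DESeq2) and 0 for siLong (5 at an unadjusted p under 0.05, 3 by DESeq2). The shares of all tested genes in those fits were not counted, so these counts cannot be set against a background.

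**Figure D1:**
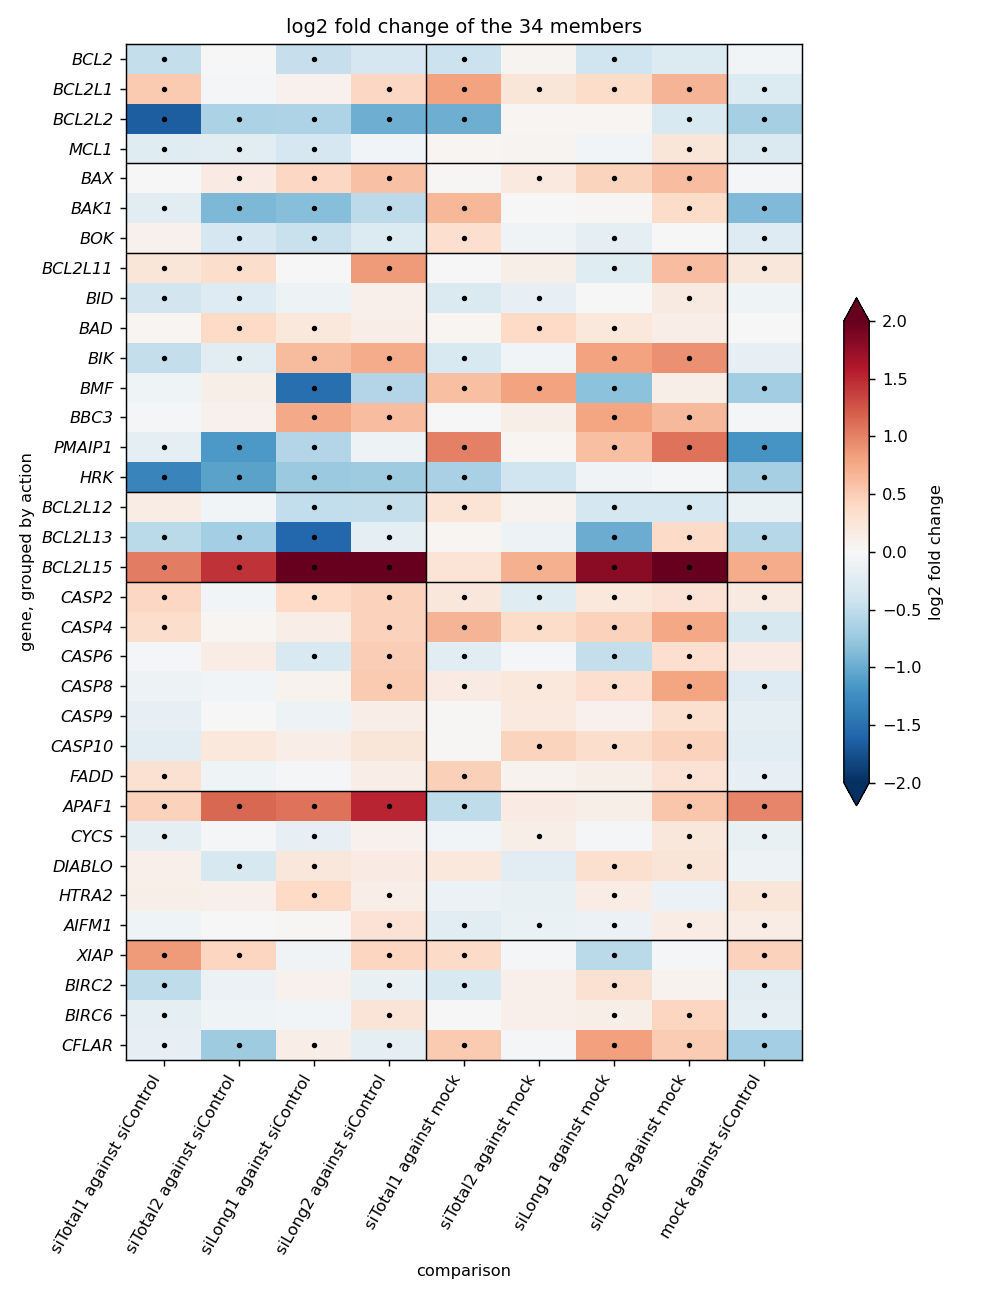
Log2 fold change of each of the 34 genes (rows, grouped by action) in the 8 comparisons of 1 siRNA group with 1 control and in mock against siControl (columns). Dots mark an adjusted p under 0.05 and the colour saturates at -2 and 2, which BCL2L15 exceeds at 2.55 and 3.71 against siControl and 2.97 against mock. No row has dots of 1 colour in all 8 siRNA columns.

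Among the antiapoptotic BCL2 genes, BCL2L1 and BCL2L2 moved apart most clearly in siTotal1. Per kilobase of exon, BCL2L1 (BCL-XL) was the most abundant of the 4 at a mean of 97.8 CPM per kb over the 12 libraries, followed by MCL1 at 54.7, BCL2L2 (BCL-w) at 9.39 and BCL2 at 0.264. BCL2L1 stood at 239 and 245 CPM in mock, 298 and 287 in siControl, 438 and 405 in siTotal1, 293 and 283 in siTotal2, 307 and 315 in siLong1 and 386 and 393 in the libraries labelled siLong2. Both siTotal1 libraries and both libraries labelled siLong2 lay above all others, and the mock libraries lay lowest. Its log2 fold change against siControl was 0.53 ± 0.04 in siTotal1 (adjusted p 3.83e-13) and 0.41 ± 0.04 in the libraries labelled siLong2 (adjusted p 9.76e-11). Against mock it was called higher in all 4 siRNA groups, by 0.80, 0.25, 0.36 and 0.68. BCL2L2 stood at 39.6 and 39.6 CPM in mock, 60.03 and 65.6 in siControl, 18.7 and 21.5 in siTotal1, 41.6 and 39.6 in siTotal2, 40.5 and 41.3 in siLong1 and 31.5 and 32.7 in the libraries labelled siLong2. The siTotal1 libraries were the lowest and the siControl libraries the highest, with no overlap between these and any other group. The fall in siTotal1 was -1.64 ± 0.06 against siControl and -0.98 ± 0.06 against mock (adjusted p 4.95e-15). In siTotal2 and siLong1 it fell only against siControl (-0.63 and -0.62), with 0.03 ± 0.06 and 0.05 ± 0.06 against mock. BCL2L2 shares 19.4% of its exon bases with the readthrough gene BCL2L2-PABPN1 on the same strand, and 43.0% of BCL2L1's exon bases face ABALON on the other strand. The library kit was stranded, but whether featureCounts used the strand is not given in the sources, so reads of such overlapping genes are uncertain.

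MCL1, a short-lived guard of BAK1, and BCL2 itself moved less. MCL1 stood at 217 and 229.7 CPM in mock, 267 and 277 in siControl, 232 and 226 in siTotal1, 235 and 228 in siTotal2, 217 and 214 in siLong1 and 265 and 260.3 in the libraries labelled siLong2. It was lower than siControl in siTotal1, siTotal2 and siLong1 (-0.25, -0.23 and -0.34), but not called in those groups against mock (0.04, 0.05 and -0.05). In the libraries labelled siLong2 it was 0.24 ± 0.04 against mock and -0.05 ± 0.04 against siControl. BCL2 stood at 3.39 and 3.52 CPM in mock, 2.97 and 4.20 in siControl, 2.55 and 2.58 in siTotal1, 3.52 and 3.68 in siTotal2, 2.46 and 2.75 in siLong1 and 2.73 and 2.97 in the libraries labelled siLong2. Its siControl libraries were further apart than any siRNA pair, and 1 of them overlapped the range of the other groups. BCL2 was called lower in siTotal1 (-0.48 against siControl, -0.43 against mock) and siLong1 (-0.46 and -0.40), and each of these 4 calls was lost when 1 library was left out. Without siControl replicate 2, for example, siTotal1 stood at -0.23 (adjusted p 0.43) and siLong1 at -0.20 (adjusted p 0.451). Without mock replicate 2, they stood at -0.40 (adjusted p 0.113) and -0.38 (adjusted p 0.114). The siTotal1 calls were also lost without siTotal1 replicate 1 (-0.50 and -0.45) or replicate 2 (-0.49 and -0.44), the siLong1 calls without siLong1 replicate 1 (-0.39 and -0.34), and those against mock without mock replicate 1 (-0.46 and -0.44).

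**Figure D2:**
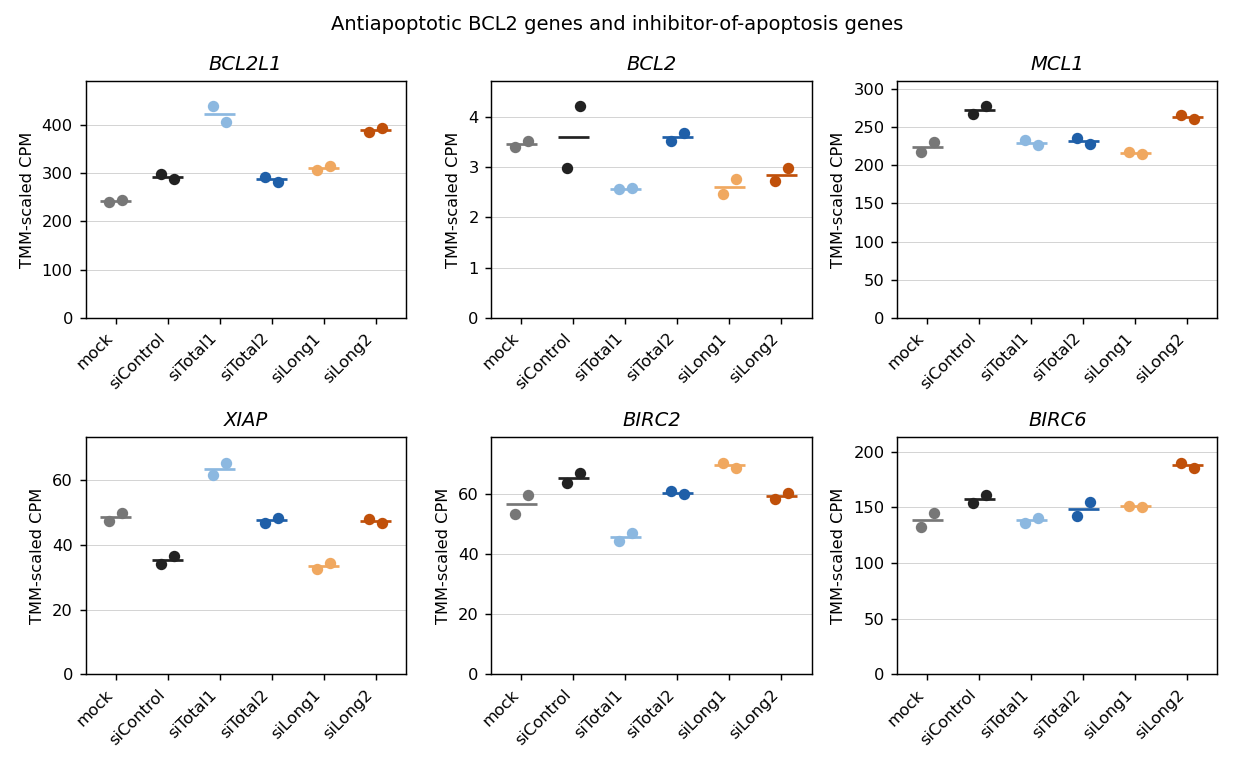
TMM-scaled CPM (y axes, linear from 0) of 3 antiapoptotic BCL2 genes (BCL2L1, BCL2, MCL1) and 3 inhibitor-of-apoptosis genes (XIAP, BIRC2, BIRC6) in the 12 libraries. Points are libraries and lines are group means. In siTotal1, BCL2L1 and XIAP lie above and BIRC2 below every library of the controls.

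The 3 pore-forming effectors did not move as a block. BAX rose in both siLong groups, BAK1 separated mainly by control, and BOK fell in siLong1. BAX stood at 64.9 and 62.2 CPM in mock, 64.7 and 64.96 in siControl, 64.4 and 65.03 in siTotal1, 75.4 and 69.8 in siTotal2, 86.7 and 86.04 in siLong1 and 96.5 and 97.6 in the libraries labelled siLong2. Both siLong groups lay above every other library, and mock, siControl and siTotal1 overlapped. The rise in siLong1 was 0.41 ± 0.05 against siControl and 0.44 ± 0.05 against mock, and in the libraries labelled siLong2 0.58 ± 0.05 and 0.61 ± 0.05. In siTotal1 the values were 0.00 ± 0.05 and 0.03 ± 0.05, neither called. In siTotal2 BAX was called at 0.16 and 0.19, and both calls were lost without siTotal2 replicate 1 (0.10 and 0.12).

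BAK1 stood at 33.95 and 33.5 CPM in mock, 58.7 and 65.6 in siControl, 55.2 and 51.4 in siTotal1, 32.4 and 34.4 in siTotal2, 34.9 and 33.8 in siLong1 and 43.6 and 43.1 in the libraries labelled siLong2. The mock, siTotal2 and siLong1 libraries lay together at the bottom and the siControl libraries at the top. All 4 siRNA groups were thus called lower against siControl (-0.22, -0.89, -0.86 and -0.52), although the siTotal1 call was lost without siControl replicate 2 (-0.15, adjusted p 0.0698). Against mock, siTotal1 and the libraries labelled siLong2 were higher (0.66 and 0.36), while siTotal2 and siLong1 stood at -0.01 ± 0.06 and 0.03 ± 0.06. BOK, an effector relative of BAX and BAK1, stood at 42.2 and 40.1 CPM in mock, 50.6 and 47.7 in siControl, 53.3 and 51.1 in siTotal1, 39.8 and 38.5 in siTotal2, 34.5 and 37.7 in siLong1 and 41.4 and 40.2 in the libraries labelled siLong2. It was lower than siControl in siTotal2, siLong1 and the libraries labelled siLong2 (-0.33, -0.45 and -0.27), and higher than mock in siTotal1 (0.34). Against mock, siLong1 was called lower (-0.19), but not without mock replicate 1 (-0.16) or without siLong1 replicate 1 (-0.15).

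The 8 BH3-only genes, which trigger or sensitise the effectors, did not move together: BIK and BBC3 were higher in both siLong groups against both controls, and the other 6 had differing patterns. For the siLong average, 4 of the 8 were called higher and 3 lower against siControl (all tested genes 25.1% and 28.4%), and 5 higher and 0 lower against mock (24.4% and 26.4%). Of the 5, BAD (0.14) and BCL2L11 (0.17) lost the call without mock replicate 1. BCL2L11 was called in opposite directions against mock in siLong1 and the libraries labelled siLong2. The BAD call against siControl was lost without siControl replicate 2 (0.13). For siTotal, 2 were higher and 4 lower against siControl (22% and 22.2%), and 3 higher and 3 lower against mock (16.6% and 14.2%). Without mock replicate 1, the siTotal calls against mock of BAD (0.18), BIK (-0.23), BMF (0.57) and HRK (-0.37) were lost. The siTotal call of BAD against siControl was lost without siControl replicate 2 (0.16). BIK, a BH3-only gene named for its BCL2 binding, stood at 12.6 and 13.4 CPM in mock, 15.1 and 14.1 in siControl, 10.5 and 10.5 in siTotal1, 13.3 and 11.9 in siTotal2, 22.8 and 22.4 in siLong1 and 23.7 and 25.3 in the libraries labelled siLong2. All 4 siLong libraries lay above all 8 others, and siTotal1 lay lowest. Its rise was 0.63 ± 0.07 and 0.75 ± 0.07 against siControl, and 0.80 ± 0.07 and 0.92 ± 0.07 against mock, for siLong1 and the libraries labelled siLong2. In siTotal1 BIK fell, with log2 fold changes of -0.47 against siControl and -0.31 against mock. In siTotal2 its value against siControl was -0.22, a call lost without siControl replicate 1 (-0.17) or siTotal2 replicate 2 (-0.14).

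BBC3, which encodes the p53-regulated BH3-only protein PUMA, ran from 16.6 and 16.9 CPM in mock and 17.5 and 16.8 in siControl to 27.6 and 30.1 in siLong1 and 25.7 and 26.6 in the libraries labelled siLong2. The siTotal libraries read 14.5 and 18.9 in siTotal1 and 18.1 and 18.2 in siTotal2, below all 4 siLong libraries. The rise was 0.75 ± 0.08 and 0.61 ± 0.08 against siControl, and 0.79 and 0.64 against mock. Neither siTotal group was called (-0.04 and 0.08 against siControl).

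PMAIP1, which encodes NOXA, the BH3-only partner of MCL1, stood at 51.05 and 52.5 CPM in mock, 111 and 124 in siControl, 113 and 95.7 in siTotal1, 52.96 and 53.3 in siTotal2, 78.6 and 77.9 in siLong1 and 108 and 111 in the libraries labelled siLong2. The mock and siTotal2 libraries lay together at the bottom, siLong1 between, and the other 3 groups at the top. Against siControl it fell in siTotal2 (-1.15 ± 0.06) and siLong1 (-0.59 ± 0.06). Against mock, siLong1 was instead higher (0.60 ± 0.06), as were siTotal1 (1.01 ± 0.06) and the libraries labelled siLong2 (1.08 ± 0.06). In siTotal1 the call against siControl (-0.17) was lost without siControl replicate 2 (-0.11) or siTotal1 replicate 2 (-0.07).

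HRK and BMF were the BH3-only genes with the fewest reads. HRK stood at 4.32 and 3.54 CPM in mock, 6.12 and 6.47 in siControl, 2.94 and 2.10 in siTotal1, 2.96 and 3.04 in siTotal2, 3.67 and 3.87 in siLong1 and 3.48 and 4.19 in the libraries labelled siLong2. The siControl libraries lay above all others, and every siRNA group was called lower against siControl (-1.32, -1.07, -0.74 and -0.71). Against mock only siTotal1 was called (-0.65 ± 0.16), and not without siTotal1 replicate 2 (-0.44). BMF stood at 0.932 and 1.11 CPM in mock, 1.47 and 1.80 in siControl, 1.42 and 1.65 in siTotal1, 1.47 and 2.07 in siTotal2, 0.508 and 0.636 in siLong1 and 1.14 and 1.05 in the libraries labelled siLong2. Both siLong1 libraries were the lowest, with -1.51 ± 0.27 against siControl (adjusted p 9.46e-06). Its value against mock was -0.82, a call lost without mock replicate 2 (-0.70) or siLong1 replicate 1 (-0.69).

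The remaining BH3-only genes each had a pattern of their own. BID, which carries the caspase-8 signal to mitochondria, read 41.5 and 39.4 CPM in siTotal1 and 44.7 and 43.1 in siTotal2, against 48.9 and 49.98 in mock and 51.2 and 53.4 in siControl. It was the only member called lower in both siTotal groups against both controls (-0.37, -0.25, -0.29 and -0.17), a pattern held by 1.83% of all tested genes. The siTotal2 call against mock was lost without mock replicate 2 (-0.16) or siTotal2 replicate 2 (-0.16). BCL2L11 (BIM) was higher in the libraries labelled siLong2, at 36.1 and 36.1 CPM against 18.9 and 21.1 in siControl and 23.3 and 23.7 in mock, with 0.85 ± 0.07 and 0.62 ± 0.06. In siLong1 BCL2L11 read 19.2 and 20.3 CPM and was lower than mock (-0.25 ± 0.07). BAD, which is switched off by survival kinases, was called higher in siTotal2 against both controls (0.40 and 0.39), with libraries at 44.5 and 37.4 CPM. BAD shares 23.7% of its exon bases with GPR137 on the other strand.

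Of the other BCL2-related genes, BCL2L15 rose most of the 34 while BCL2L12 fell in both siLong groups. BCL2L15, a little studied BCL2 relative, stood at 1.25 and 1.06 CPM in mock, 0.473 and 0.916 in siControl, 1.47 and 1.34 in siTotal1, 1.99 and 1.81 in siTotal2, 3.95 and 4.16 in siLong1 and 9.41 and 8.78 in the libraries labelled siLong2. Each siLong1 library exceeded every control and siTotal library, and each library labelled siLong2 exceeded siLong1. Its log2 fold change was 2.55 ± 0.21 and 3.71 ± 0.19 against siControl, and 1.80 ± 0.18 and 2.97 ± 0.16 against mock. The siControl libraries were the lowest of the 12 and, relative to their level, lay further apart than those of any other group. In siTotal2 BCL2L15 was called at 1.45 against siControl and 0.71 against mock, the latter lost without mock replicate 2 (0.60) or siTotal2 replicate 1 (0.63).

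BCL2L12, a BCL2-related gene beside IRF3, stood at 55.1 and 51.5 CPM in mock, 61.7 and 55.1 in siControl, 65.00 and 64.1 in siTotal1, 61.4 and 51.2 in siTotal2, 41.8 and 41.6 in siLong1 and 40.9 and 42.97 in the libraries labelled siLong2. All 4 siLong libraries lay below the other 8. The fall was -0.49 ± 0.07 and -0.48 ± 0.07 against siControl, and -0.36 ± 0.07 and -0.35 ± 0.07 against mock. IRF3 covers 33.1% of its exon bases on the other strand. BCL2L13, an outer-membrane protein linked to mitophagy, stood at 63.2 and 64.97 CPM in mock, 96.2 and 94.8 in siControl, 65.97 and 66.04 in siTotal1, 61.9 and 57.2 in siTotal2, 33.96 and 30.7 in siLong1 and 82.01 and 84.8 in the libraries labelled siLong2. The siLong1 libraries were the lowest by a wide margin, while the libraries labelled siLong2 came closest to siControl. In siLong1 it fell, at -1.56 against siControl and -0.99 against mock, whereas the libraries labelled siLong2 stood at -0.20 and 0.38.

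Among the caspases and FADD, CASP2 was called higher in 3 of the 4 siRNA groups against both controls. CASP4, CASP6 and CASP8 joined it in the libraries labelled siLong2. For the siLong average, 3 of these 7 genes were called higher and 0 lower against siControl (all tested genes 25.1% and 28.4%), and 6 higher and 0 lower against mock (24.4% and 26.4%). Of the 6, CASP9 lost the call without mock replicate 1 (0.22) or mock replicate 2 (0.19). CASP2, an initiator caspase linked to DNA damage and cell division, stood at 103 and 109 CPM in mock, 95.6 and 91.5 in siControl, 125 and 123 in siTotal1, 87.8 and 91.8 in siTotal2, 123 and 123 in siLong1 and 131 and 127 in the libraries labelled siLong2. The siTotal1, siLong1 and labelled siLong2 libraries lay above both controls, and siTotal2 overlapped siControl. The values against siControl were 0.41 ± 0.04, -0.06 ± 0.04, 0.40 ± 0.04 and 0.46 ± 0.04, in the order siTotal1, siTotal2, siLong1 and the libraries labelled siLong2. Against mock they were 0.23, -0.24, 0.22 and 0.28, all called, so siTotal2 was lower than mock.

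CASP8, the initiator caspase of death receptors, stood at 34.5 and 33.5 CPM in mock, 41.8 and 39.98 in siControl, 38.5 and 37.6 in siTotal1, 39.5 and 38.9 in siTotal2, 43.3 and 42.6 in siLong1 and 59.4 and 58.6 in the libraries labelled siLong2. The libraries labelled siLong2 lay well above the rest, with 0.53 ± 0.05 against siControl and 0.79 ± 0.05 against mock. CASP4, an inflammatory caspase, stood at 11.7 and 12.6 CPM in mock, 15.98 and 14.4 in siControl, 20.7 and 18.04 in siTotal1, 16.2 and 15.1 in siTotal2, 16.4 and 16.9 in siLong1 and 20.97 and 20.7 in the libraries labelled siLong2. It was higher in siTotal1 and in the libraries labelled siLong2 against both controls (0.35 and 0.46 against siControl, 0.68 and 0.78 against mock). CASP6, an effector caspase, stood at 17.5 and 17.7 CPM in mock, 15.3 and 15.9 in siControl, 16.2 and 14.2 in siTotal1, 17.9 and 16.6 in siTotal2, 11.7 and 13.6 in siLong1 and 21.5 and 22.6 in the libraries labelled siLong2. Here the siLong groups moved apart, siLong1 lying lowest and the libraries labelled siLong2 highest. In siLong1 it was -0.31 ± 0.08 against siControl, a call lost without siLong1 replicate 1 (-0.21), and -0.48 ± 0.08 against mock. In the libraries labelled siLong2 it was 0.50 ± 0.08 and 0.33 ± 0.08.

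FADD, CASP9 and CASP10 were called in fewer of the 8 comparisons than the other caspases. FADD, the adaptor between death receptors and caspase-8, was higher in siTotal1, at 39.2 and 37.04 CPM against 30.5 and 30.96 in siControl and 27.4 and 27.7 in mock (0.31 and 0.47), and in the libraries labelled siLong2 against mock (0.28). A long non-coding gene covers 54.9% of its exon bases on the other strand. CASP9, the caspase of the apoptosome, was not called in any siRNA group against siControl (between -0.17 in siTotal1 and 0.14 in the libraries labelled siLong2). Against mock it was higher in the libraries labelled siLong2 (0.32), a call lost without siLong2 replicate 1 (0.24). CASP10, the paralog of CASP8, was not called against siControl either, with values between -0.20 in siTotal1 and 0.24 in the libraries labelled siLong2. Against mock it was higher in siTotal2 (0.44), siLong1 (0.36) and the libraries labelled siLong2 (0.47). The siLong1 call was lost without mock replicate 1 (0.36), mock replicate 2 (0.35) or siLong1 replicate 1 (0.32).

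Of the apoptosome and release factors, APAF1 had the largest differences, and they followed the choice of control. APAF1, the scaffold of the apoptosome, stood at 32.2 and 34.8 CPM in mock, 17.1 and 16.9 in siControl, 22.4 and 24.6 in siTotal1, 35.01 and 40.2 in siTotal2, 35.3 and 36.9 in siLong1 and 46.9 and 51.2 in the libraries labelled siLong2. The siControl libraries were the lowest and the libraries labelled siLong2 the highest, with the other groups between. All 4 siRNA groups were higher than siControl (0.47 ± 0.07, 1.15 ± 0.07, 1.09 ± 0.07 and 1.53 ± 0.07). Against mock, siTotal1 was lower (-0.51 ± 0.07) and the libraries labelled siLong2 higher (0.55 ± 0.06), while siTotal2 and siLong1 were not called (0.17 and 0.11).

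AIFM1, a flavoprotein of the intermembrane space, stood at 85.04 and 84.4 CPM in mock, 78.5 and 75.2 in siControl, 72.2 and 73.05 in siTotal1, 76.8 and 78.1 in siTotal2, 79.5 and 76.4 in siLong1 and 91.1 and 97.3 in the libraries labelled siLong2. It was higher in the libraries labelled siLong2 against siControl (0.29 ± 0.05). Against mock they were at 0.15, a call lost without siLong2 replicate 2 (0.10). AIFM1 was lower than mock in siTotal1 (-0.22 ± 0.05), siTotal2 (-0.13) and siLong1 (-0.12). The siTotal2 call was lost without any 1 of the 4 libraries compared (between -0.15 and -0.13), and the siLong1 call without mock replicate 1 (-0.12), mock replicate 2 (-0.13) or siLong1 replicate 2 (-0.11). CYCS, the gene of cytochrome c, stood at 284 and 318 CPM in mock, 323 and 342 in siControl, 294 and 286 in siTotal1, 333 and 322 in siTotal2, 301 and 289.97 in siLong1 and 344 and 361 in the libraries labelled siLong2. Its groups overlapped broadly, and its mock libraries were the furthest apart of the 6 pairs. The largest calls of a siRNA group against a control were -0.20 in siTotal1 against siControl and 0.23 in the libraries labelled siLong2 against mock. Processed copies of CYCS elsewhere in the genome make its count uncertain.

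DIABLO (SMAC) and HTRA2 both bind inhibitor-of-apoptosis proteins after release. DIABLO stood at 8.67 and 9.05 CPM in mock, 9.04 and 9.89 in siControl, 10.9 and 9.47 in siTotal1, 7.95 and 7.17 in siTotal2, 11.5 and 10.6 in siLong1 and 10.7 and 10.4 in the libraries labelled siLong2. It was called higher in siLong1 against both controls (0.22 and 0.32), and both calls were lost when siLong1 replicate 1 was left out (0.15 and 0.24). The first was also lost without siLong1 replicate 2 (0.27) or either siControl library (0.15 and 0.28), and the second without mock replicate 1 (0.28). HTRA2 was higher in siLong1, at 39.8 and 38.1 CPM, than in siControl, at 29.5 and 29.5 CPM (0.40 ± 0.06). Against mock, at 35.8 and 34.2 CPM, the value was 0.15, lost without mock replicate 2 (0.12) or either siLong1 library (0.11 and 0.17). DIABLO shares 29.6% of its exon bases with genes on the same strand and 14.3% with genes on the other. A second GENCODE 29 gene of the same name is among them, so DIABLO's count is uncertain. HTRA2 shares 36.9% of its exon bases with genes on the other strand.

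The 4 caspase inhibitors differed between the siRNA groups rather than moving together. XIAP, which blocks caspases directly, stood at 47.3 and 49.9 CPM in mock, 33.98 and 36.6 in siControl, 61.5 and 65.5 in siTotal1, 46.9 and 48.4 in siTotal2, 32.6 and 34.3 in siLong1 and 48.1 and 46.97 in the libraries labelled siLong2. The siTotal1 libraries were the highest, and siLong1 and siControl the lowest. XIAP was higher in siTotal1 than in siControl (0.85 ± 0.05) and in mock (0.39 ± 0.05). In siLong1 it was -0.08 ± 0.06 against siControl, not called, and lower than mock (-0.54 ± 0.06). BIRC2 (cIAP1), a ubiquitin ligase of tumour necrosis factor signalling, stood at 53.4 and 59.9 CPM in mock, 63.9 and 67.1 in siControl, 44.5 and 47.3 in siTotal1, 61.1 and 60.1 in siTotal2, 70.6 and 68.8 in siLong1 and 58.4 and 60.4 in the libraries labelled siLong2. The siTotal1 libraries lay below all others, with -0.51 ± 0.05 against siControl and -0.30 ± 0.05 against mock. So XIAP and BIRC2 were called in opposite directions in siTotal1 under both controls.

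BIRC6, a very large ubiquitin-conjugating member of the inhibitor family, stood at 133 and 145 CPM in mock, 154 and 161 in siControl, 136 and 141 in siTotal1, 142 and 154 in siTotal2, 151 and 150.1 in siLong1 and 190.1 and 185 in the libraries labelled siLong2. The libraries labelled siLong2 lay above all others (0.25 ± 0.05 against siControl and 0.44 ± 0.05 against mock). CFLAR, whose protein FLIP blocks caspase-8, stood at 31.5 and 32.02 CPM in mock, 52.1 and 49.7 in siControl, 46.3 and 44.7 in siTotal1, 30.8 and 31.2 in siTotal2, 56.7 and 54.9 in siLong1 and 45.4 and 44.5 in the libraries labelled siLong2. The mock and siTotal2 libraries lay together, far below the other groups. In siTotal2 it was -0.72 ± 0.05 against siControl and -0.03 ± 0.05 against mock, and in siLong1 it was 0.81 ± 0.05 against mock. Its siLong1 call against siControl (0.13) was lost without any 1 of the 4 libraries compared, at 0.15 and 0.09 without siControl replicate 1 or 2, and 0.10 and 0.15 without siLong1 replicate 1 or 2. The weaker calls against siControl in siTotal1 (-0.16) and the libraries labelled siLong2 (-0.18) were lost without siControl replicate 1 (-0.15 and -0.15), and the former also without siTotal1 replicate 2 (-0.15).

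Read by siRNA and against both controls, 6 members were called alike in siLong1 and the libraries labelled siLong2. BAX, BIK, BBC3, BCL2L15 and CASP2 were higher in all 4 of those comparisons, where 6.71% of all tested genes were, and BCL2L12 was lower, where 7.24% of all tested genes were. Of those 5, BAX, BIK and BBC3 are proapoptotic and CASP2 is a caspase. These 24 calls kept their direction and their call under each of the 9 alternatives run for them. Over those alternatives and the 4 comparisons, BAX ranged from 0.40 to 0.65, BIK from 0.57 to 0.96, BBC3 from 0.58 to 0.83, CASP2 from 0.17 to 0.49, BCL2L15 from 1.70 to 4.25 and BCL2L12 from -0.58 to -0.30. Both controls as 1 group and each siRNA group as 1 replicate were run for the averages only, and are not among the 9. With each siRNA group as 1 replicate, edgeR called 0 of the 6 for siLong against siControl. All but CASP2 had an unadjusted p under 0.05 there, and DESeq2 called BIK, BBC3 and BCL2L15. How many of all tested genes did likewise was not counted. In siTotal, 0 members were higher in both groups against both controls (background 2.45%), and BID alone was lower. The summed level of the colon epithelium markers, most of it from KRT8, KRT18 and KRT19, was higher in both siLong groups. It was 5429 to 5446 CPM in siLong1 and 4958 to 5151 CPM in the libraries labelled siLong2. Over the 8 other libraries it was 3264 to 3755 CPM. Group means in the order mock, siControl, siLong1 and labelled siLong2 were 1664, 1483, 2692 and 2527 CPM for KRT8. They were 252, 279, 298 and 264 CPM for EPCAM, and 80.3, 97.2, 98.3 and 81.2 CPM for CDH1. For siLong against siControl, 5 of the 7 tested markers were called higher (KRT8, KRT18, KRT19, KRT20 and CDX2). CDH1 was called lower and EPCAM was not called. Of all tested genes 25.1% were higher and 28.4% lower. Against mock 5 were higher (EPCAM, CDH1, KRT8, KRT18 and KRT19) and 0 lower (all tested genes 24.4% and 26.4%). What part the rise of the sum had in the siLong calls was not tested.

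**Figure D3:**
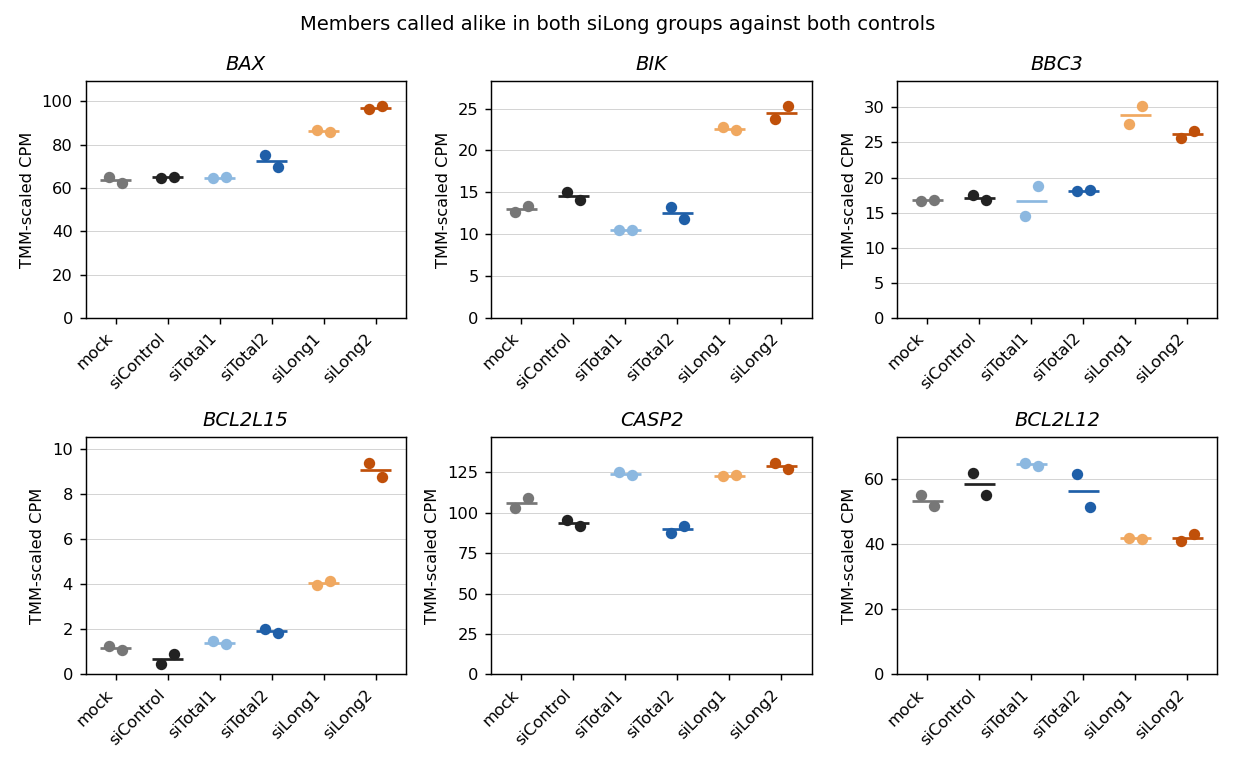
TMM-scaled CPM (y axes, linear from 0) of the 6 genes called alike in both siLong groups against both controls. Points are the 12 libraries and lines are group means. BAX, BIK, BBC3 and BCL2L15 are higher, and BCL2L12 lower, in the 4 siLong libraries than in the 8 others, while CASP2 is also high in siTotal1.

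In GENCODE 29 (GRCh38), BAX lies on the plus strand at chr19:48954815-48961798 and BCL2L15 on the minus strand at chr1:113878168-113887547. Per kilobase of exon over the 12 libraries, BAX averaged 28.9 CPM per kb, whereas BCL2L15 averaged 0.396 CPM per kb, so the gene with the largest fold is among the least abundant.

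Counted 1 siRNA at a time, the direction of the calls depended on the control. The percentages that follow are the shares of all tested genes called, in all, higher and lower. Against siControl, 21 members were called in siTotal1, 8 higher and 13 lower (43.4%, 22.9% and 20.5%), and 17 in siTotal2, 6 higher and 11 lower (45.1%, 22.6% and 22.6%). There were 22 in siLong1, 10 higher and 12 lower (54.5%, 26.4% and 28.1%), and 24 in the libraries labelled siLong2, 15 higher and 9 lower (52.7%, 25.9% and 26.9%). Against mock, 21 were called in siTotal1, 12 higher and 9 lower (40.9%, 22.1% and 18.7%), and 12 in siTotal2, 9 higher and 3 lower (26.7%, 14.1% and 12.6%). There were 25 in siLong1, 16 higher and 9 lower (52%, 26% and 26.1%), and 26 in the libraries labelled siLong2, 24 higher and 2 lower (50.3%, 25.2% and 25%). In siTotal1, 5 members were higher against both controls (BCL2L1, CASP2, CASP4, FADD and XIAP, background 12.6%) and 6 lower (BCL2, BCL2L2, BID, BIK, HRK and BIRC2, background 9.56%). A further 4 were called in opposite directions by control in siTotal1, BAK1, PMAIP1, APAF1 and CFLAR, where 3.71% of all tested genes were. As given above, a call of BCL2, HRK, BAK1, PMAIP1 and CFLAR among these was lost when 1 library was left out. In siTotal2, BAX, BAD and BCL2L15 were higher against both controls (background 8.36%) and BID lower (7.39%), of which BAX, BCL2L15 and BID each lost a call in the same way. In siLong1, 9 members were higher against both (background 17.2%) and 6 lower, BCL2, BOK, BMF, BCL2L12, BCL2L13 and CASP6 (18.3%). Of the 6, BCL2L12 and BCL2L13 kept both calls without each library in turn. The 9 were the 5 named for siLong with BAD, DIABLO, HTRA2 and CFLAR, and each of these added 4 lost a call when 1 library was left out, BAD for example at 0.18 against mock without mock replicate 1. In the libraries labelled siLong2, 13 were higher against both controls (background 16.8%) and 2 lower (BCL2L2 and BCL2L12, background 16.8%). The 13 included BCL2L1, BCL2L11, CASP4, CASP6, CASP8, APAF1, AIFM1 and BIRC6 beside the 5 named above for siLong, and of the 13 AIFM1 lost a call when 1 library was left out, at 0.10 against mock without replicate 2 of the libraries labelled siLong2.

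The 2 controls themselves differed in 23 of the 34 genes, 7 higher and 16 lower in mock than in siControl, where 39.8% of all tested genes were called (19.5% higher, 20.3% lower). PMAIP1 (-1.18 ± 0.06), BAK1 (-0.88 ± 0.06), CFLAR (-0.68 ± 0.05), BCL2L2 (-0.67 ± 0.06) and BCL2L13 (-0.58 ± 0.05) were lower in mock, and APAF1 (0.98 ± 0.07) was higher. In these 6 genes siTotal2 lay nearer to mock, with log2 fold changes against it of 0.04, -0.01, -0.03, 0.03, -0.11 and 0.17, none called, whereas all 6 were called against siControl. Not all members did so: of the 23 called between the controls, siTotal2 lay nearer to mock in 14 and nearer to siControl in 9, by the size of its log2 fold change against each. The 9 were BCL2L1, BMF, CASP2, CASP4, CASP8, CYCS, HTRA2, AIFM1 and BIRC6. BMF, for example, stood in siTotal2 at 0.12 against siControl and 0.81 against mock, the latter call lost without mock replicate 1 (0.68) or siTotal2 replicate 2 (0.52). In siTotal1 and siLong1 12 of the 23 lay nearer to mock, and 13 in the libraries labelled siLong2. The same split over all tested genes was not counted. The comparisons that use the same control libraries share them and are not independent. Of the fibroblast markers, COL1A1 stood between 25.9 and 41.7 CPM in the 12 libraries. The others were low and uneven, with a sum of 8.11 CPM in mock replicate 1 and 0.457 CPM in mock replicate 2. Their sum was 5.71 and 2.73 CPM in siTotal2 and 0.131 and 0.485 CPM in siControl. It was 0.417 and 0.196 CPM in siTotal1, 0.564 and 0.370 in siLong1, and 0.641 and 2.49 in the libraries labelled siLong2. Without mock replicate 1, the differences of the 6 genes named first between mock and siControl were of similar size. They stood at -1.17, -0.90, -0.67, -0.67, -0.56 and 1.03 in the same order. Other members lost their call between the controls without that library. These were BMF (-0.57), BCL2L15 (0.61), FADD (-0.15), CYCS (-0.07), AIFM1 (0.13), BIRC2 (-0.14) and BIRC6 (-0.12).

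**Figure D4:**
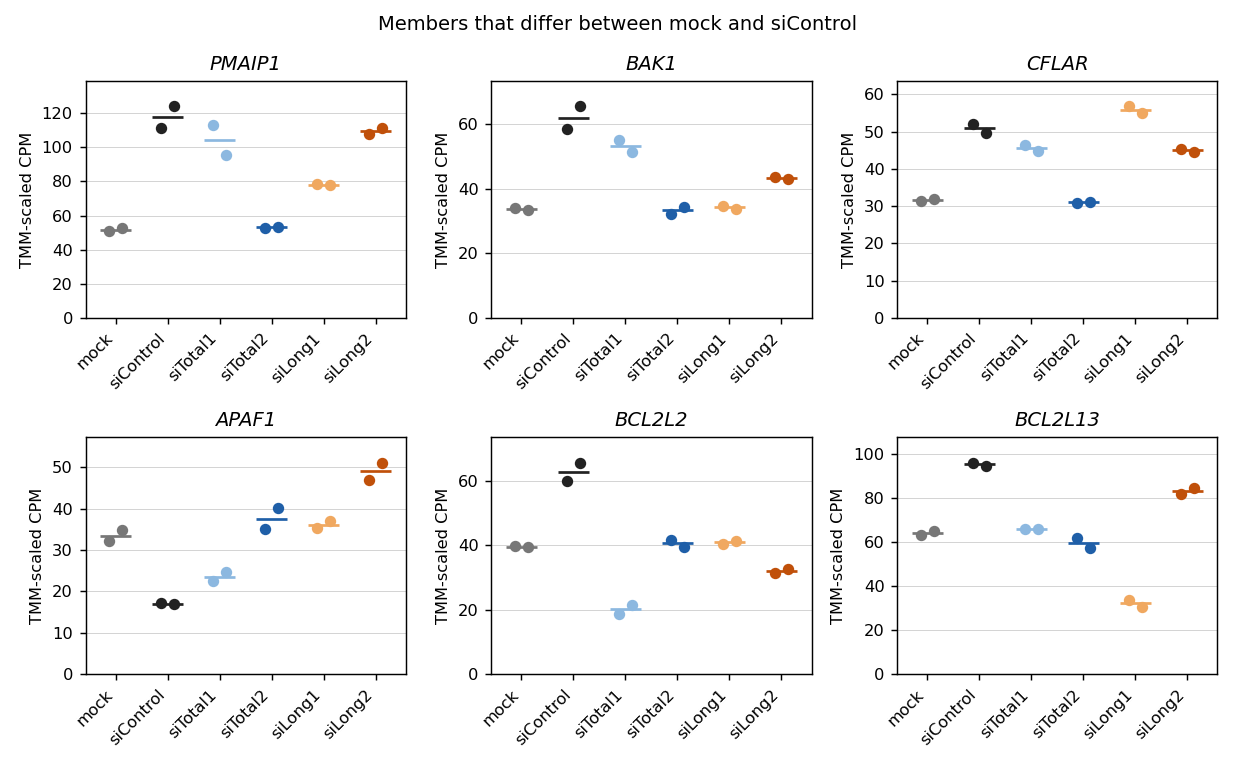
TMM-scaled CPM (y axes, linear from 0) of 6 of the 23 genes called between mock and siControl. BCL2L15, BMF and HRK also differed by a similar amount at low counts and are not drawn. Points are the 12 libraries and lines are group means. For PMAIP1, BAK1, CFLAR and BCL2L2 the siTotal2 libraries lie beside mock rather than beside siControl, which does not hold for 9 genes not drawn, BMF among them.

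The siTotal and siLong averages share no control and can be set against each other. They differed in 24 members, 6 higher and 18 lower in siTotal, where 53.4% of all tested genes were called (28.1% higher, 25.3% lower). BIK (-1.03 ± 0.05), BBC3 (-0.66 ± 0.06), BAX (-0.42 ± 0.03) and BCL2L15 (-1.89 ± 0.12) were lower in siTotal, and BMF (1.06 ± 0.18), BCL2L12 (0.53 ± 0.05) and XIAP (0.46 ± 0.04) were higher. By role, 6 of the 8 BH3-only genes were lower and 1 higher in siTotal, 4 of the 5 apoptosome and release factors were lower, and 0 of the 7 caspase and adaptor genes were higher. Of the 6 lower BH3-only genes, BCL2L11 (-0.13) was no longer called without siTotal1 replicate 1 (-0.12), siTotal2 replicate 2 (-0.11) or siLong1 replicate 2 (-0.11). Set against siLong1 alone, without the libraries labelled siLong2, 25 members were called, and the share of all tested genes called there was not counted. BCL2L11 changed sign to 0.31, and PMAIP1 (-0.07) and AIFM1 (-0.06) were no longer called.

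The siRNAs of a pair also differed from each other. siTotal1 and siTotal2 differed in 21 members, 12 higher and 9 lower in siTotal1, where 43.9% of all tested genes were called (23.3% higher, 20.6% lower). The share of higher calls was 57.1%, and 41.7% with scaling by library size alone. BCL2L2 (-1.01 ± 0.06), PMAIP1 (0.97 ± 0.06), APAF1 (-0.68 ± 0.07) and BAK1 (0.67 ± 0.06) had the largest such differences. siLong1 and the libraries labelled siLong2 differed in 25, 4 higher and 21 lower in siLong1, where 53.7% of all tested genes were called (26.7% higher, 27% lower). The largest were in BCL2L13 (-1.37 ± 0.05), BCL2L15 (-1.16 ± 0.14), BMF (-0.93 ± 0.29) and BCL2L11 (-0.87 ± 0.07). The BMF call was lost without siLong1 replicate 1 (-0.79). BIK (-0.12 ± 0.07), BBC3 (0.14 ± 0.08), CASP2 (-0.07 ± 0.04) and BCL2L12 (-0.01 ± 0.07) were not called between the siLong groups.

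Genes on either side of these members were read from lists of death receptors, p53 targets, caspase substrates, outer-membrane partners, turnover enzymes and transcription factors. Of 8 tested death-receptor genes, 5 were called higher and 1 lower for siLong against siControl, and 6 higher and 1 lower against mock. The shares of all tested genes called higher and lower, against which these counts and those of the next lists are read, were 25.1% and 28.4% for siLong against siControl and 24.4% and 26.4% against mock, and 22% and 22.2% for siTotal against siControl and 16.6% and 14.2% against mock. For siTotal, 3 death-receptor genes were higher and 2 lower against siControl, and 3 higher and 0 lower against mock. FAS, the receptor that recruits FADD, stood at 16.6 and 17.5 CPM in mock, 18.8 and 18.1 in siControl, 26.5 and 24.1 in siTotal1, 23.99 and 23.7 in siTotal2, 28.6 and 30.2 in siLong1 and 46.7 and 49.6 in the libraries labelled siLong2. Both controls lay below every siRNA library, and FAS was called higher in all 8 comparisons, between 0.37 and 1.50. TNFRSF10B, a TRAIL receptor, was also called in all 8, between 0.10 and 0.43. TNFRSF1A was higher in siTotal1 and siLong1 and lower in siTotal2 and in the libraries labelled siLong2 (0.18, 0.42, -0.36 and -0.33 against siControl).

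Of the 9 tested p53-arm genes, 5 were higher and 1 lower for siLong against siControl (all tested genes 25.1% and 28.4%), and 7 higher and 0 lower against mock (24.4% and 26.4%). The siTotal counts were 4 higher and 2 lower against siControl (22% and 22.2%), and 5 higher and 1 lower against mock (16.6% and 14.2%). CDKN1A, the cell-cycle inhibitor p21, stood at 284 and 305 CPM in mock, 328 and 334 in siControl, 355 and 353 in siTotal1, 415 and 389 in siTotal2, 504 and 515 in siLong1 and 995 and 1010.2 in the libraries labelled siLong2. The libraries labelled siLong2 were the highest and siLong1 next. PERP, a p53 target in cell adhesion, was called higher in all 8, between 0.13 in siTotal2 and 0.85 in the libraries labelled siLong2. BTG2 was higher in siTotal2, siLong1 and the libraries labelled siLong2 against siControl (0.69, 1.31 and 1.90), and lower in siTotal1 (-0.20).

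Of the 6 genes that act after caspase activation, 2 were higher and 2 lower for siLong against siControl (all tested genes 25.1% and 28.4%), and 2 higher and 1 lower for siTotal (22% and 22.2%). Against mock the balance turned, with 1 higher and 3 lower for siLong (24.4% and 26.4%) and likewise for siTotal (16.6% and 14.2%). GSDME, a gasdermin cleaved by caspase-3, was higher in siTotal2 (0.73 against siControl and 0.36 against mock) and lower in siLong1 (-0.97 and -1.34). PARP1 was lower in siControl than in siTotal1, siTotal2 and siLong1 (differences of 0.22, 0.17 and 0.20) and than in mock (0.21), and none of the 3 siRNA groups was called against mock (0.01, -0.04 and -0.01). In the libraries labelled siLong2 PARP1 was lower than both controls (-0.14 and -0.35). DFFB, the caspase-activated nuclease, was higher in both siLong groups against siControl (0.45 and 0.40), and against mock was called in siLong1 (0.19) but not in the libraries labelled siLong2 (0.14). Of the 6 outer-membrane partners, 2 were higher and 1 lower for siLong against siControl, and 1 higher and 0 lower for siTotal. Against mock it was 1 higher and 3 lower for siLong, and 0 higher and 2 lower for siTotal. VDAC1 fell in siLong1 (-0.40 against siControl and -0.61 against mock) and rose in siTotal1 (0.34 and 0.14) and the libraries labelled siLong2 (0.34 and 0.13). VDAC3 was called against siControl at -0.25 in siLong1 and 0.14 in siTotal1. MTCH2, a receptor for BID, was called at 0.30 in the libraries labelled siLong2 and -0.11 in siTotal1.

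Of 5 turnover enzymes, 1 was higher and 2 lower for siLong against siControl (all tested genes 25.1% and 28.4%), and 0 higher and 1 lower for siTotal (22% and 22.2%). Against mock, 2 were higher and 1 lower for siLong (24.4% and 26.4%) and for siTotal (16.6% and 14.2%). FBXW7, a ubiquitin ligase adaptor with MCL1 among its targets, fell in siTotal2 (-0.51) against siControl, where mock was also lower (-0.52). Against mock FBXW7 was higher in the other 3 siRNA groups (0.45, 0.52 and 0.43, in the order siTotal1, siLong1 and labelled siLong2). Against siControl ARIH1 was at -0.13, -0.15 and -0.41 in that order, and UBE2L3 at 0.21 in siTotal1 and -0.21 in siLong1, all called. Of 6 tested transcription factors, 0 were higher and 4 lower for both siLong and siTotal against siControl. Against mock, 1 was higher and 4 lower for siLong, and 1 higher and 3 lower for siTotal. ATF4, the stress factor upstream of several BH3-only genes, fell in all 4 siRNA groups against siControl (-0.32, -0.70, -0.90 and -0.90), as did mock (-0.35), and siTotal1 was not called against mock (0.03). E2F1 also fell in all 4 against siControl (-0.37, -0.13, -0.56 and -0.91), with siTotal2 not called against mock (-0.13). FOXO1 was lower than siControl in siTotal2 and the libraries labelled siLong2 (-0.25 and -0.32) and higher in siLong1 (0.23, and 0.18 against mock).

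Because NF-Y binds CCAAT, the pentamer was searched for in the RefSeq promoters of the members (GRCh38.p14, 250 bases before to 50 after each start). Searched as CCAAT or its complement ATTGG, on either strand, it was present for 15 of 30 members with an entry (50%) and for 42.8% of 11490 tested genes with one. Counted by start site, it was present at 30.9% of 55 member start sites and 34.5% of 16633 sites of tested genes. Of the 6 genes called alike in both siLong groups, BIK had no promoter entry. The windows of BAX, BBC3 and CASP2 held the letters and those of BCL2L15 and BCL2L12 did not. The 30 bases around each match in those 3 genes are shown, with the pentamer in capitals on the gene's strand.
BAX, -203, chr19:48954660-48954689, plus strand: attagagctgcgATTGGacggacggctgtt
BAX, -148, chr19:48954715-48954744, plus strand: cgggagatgctcATTGGacagtcacgtgac
BBC3, -87, chr19:47232737-47232766, minus strand: gaggcgattgcgATTGGgtgagacccagta
CASP2, -221, chr7:143288118-143288147, plus strand: gggaatcgataaCCAATcggattcccaggc
CASP2, -101, chr7:143288238-143288267, plus strand: ccacttcaccccATTGGaccgcgcggccgc
The number after each gene is the distance of the match from the start site. A match describes letters in the window and not binding.

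The target words shown in capitals in the siRNAs were then counted in the longest annotated 3′ UTR of each gene (GENCODE 29). The word AAGGGAA of the siTotal siRNA listed first was present in 10 of 34 members (29.4%) and in 20.1% of 13089 tested genes with such a UTR. The 10 were BCL2, BCL2L2, MCL1, BMF, BCL2L13, CASP9, CASP10, APAF1, BIRC2 and BIRC6. In siTotal1, BCL2, BCL2L2 and BIRC2 of these 10 were lower against both controls. So were 3 of the 24 members without the word (BID, BIK and HRK), and 9.56% of all tested genes. Of these, both BCL2 calls and the HRK call against mock were lost when 1 library was left out. In siTotal2 it was 0 of the 10 and 1 of the 24 (BID), and 7.39% of all tested genes. The share among tested genes that hold the word was not counted. BCL2L2 and BIRC2 each held the word at 2 places, printed in the sense of the transcript with the word in capitals (GRCh38, plus strand for both genes).
BCL2L2, chr14:23311217-23311246: cttcttagcttgAAGGGAAaccccagagac
BCL2L2, chr14:23311357-23311386: tttttaaaaaatAAGGGAAataaatgtaat
BIRC2, chr11:102378250-102378279: atctaaagtaaaAAGGGAAttatgagtttt
BIRC2, chr11:102378365-102378394: ctgtttatttacAAGGGAAgatttatgttt
BCL2L13 held the word at 3 places, the most of the 34, and stood in siTotal1 at -0.53 against siControl and 0.04 against mock. MCL1 held it at 2 places, at -0.25 and 0.04. Neither was called against mock. Of the other siRNAs, GACGATT was present in CYCS alone (2.9% against 1.5% of tested genes), TAGGGTA at 2 places in XIAP alone (2.9% against 6.0%) and TAGCATC in CFLAR alone (2.9% against 7.2%). The CCAAT and seed-word searches were chosen after the members' values had been seen, and describe letters only.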

How the data were processed

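RNA of 12 HCT116 cultures was sequenced (poly(A) RNA, stranded library kit per the labels' protocols). The authors deposited 1 table of read counts per Ensembl gene, and the counts are whole numbers that were not normalized. The submitters' processing notes name hg19, featureCounts and STAR 2.4.0f1, while the annotation and strand setting are not given in these sources. Groups and replicate numbers came from the sample titles. The members and lists were chosen with earlier results of these data known.

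Counts were fitted with edgeR 4.0.16 (R 4.3.3) in 1 model of 6 groups with TMM scaling, filterByExpr (minimum count 10, minimum total 15) and robust quasi-likelihood F-tests, with 6 residual degrees of freedom and Benjamini-Hochberg adjustment over 17730 genes. Depth was 35604197 to 49746637 reads a library. Tested on simulated data for siTotal against siControl with 17314 genes, the fit recovered 50% of genes changed 1.2-fold, 62% at 1.5-fold, 86% at 2-fold and 94% at 4-fold, and 8 of 154 calls were false. The simulation changed 50 genes at each fold, drawn at random over all levels, whereas 44.2% of tested genes were called in the data. Its rates are therefore not those of the members. Values in every library were given for up to 4 members per class, and up to 3 genes per pathway list were named, ranked by the number of the 8 siRNA comparisons in which they were called, then by the size of the change. Library values of BBC3, BID, BCL2L11, BAD, FADD and HTRA2 fall outside that rule and were added after they had been seen. TNFSF10, TP53AIP1 and TP63 did not pass the filter. Symbols and positions came from GENCODE 29 (52181 identifiers with a symbol), and promoters from RefSeq. Alternatives were RLE factors, library size alone, no filter, DESeq2 1.42.0, a replicate block, leaving out each library, both controls as 1 group and each siRNA group as 1 replicate.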

Additional observations from a re-analysis of the deposited data

Results flagged for a closer look

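Several members were called in opposite directions by 2 siRNA groups, or by siTotal and siLong, against the same control, with the direct difference also called (edgeR, adjusted p over all tested genes). Between siTotal1 and siTotal2, CASP2 differed by 0.47 ± 0.04 (SE), with 0.23 and -0.24 against mock. Between siLong1 and the libraries labelled siLong2, BCL2L13 differed by -1.37 (-0.99 and 0.38 against mock). BCL2L11 differed by -0.87 (-0.25 and 0.62 against mock). CASP6 differed by -0.80, from -0.31 and 0.50 against siControl and -0.48 and 0.33 against mock. AIFM1 differed by -0.27 (-0.12 and 0.15 against mock), and CFLAR by 0.31 (0.13 and -0.18 against siControl). Leaving out siLong1 replicate 1 ended the siLong1 call against siControl for CASP6 (-0.21) and CFLAR (0.10). Leaving out mock replicate 1 ended the siLong1 call for AIFM1 (-0.12).

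Between the siTotal and siLong averages, BIK differed by -1.03, from -0.35 and 0.69 against siControl and -0.18 and 0.86 against mock. BCL2L12 differed by 0.53 (0.18 and -0.35 against mock) and APAF1 by -0.50 (-0.17 and 0.33 against mock). XIAP differed by 0.46 (0.18 and -0.28 against mock), and BIRC6 by -0.23 (-0.14 and 0.10 against siControl). Against siControl, the BIRC6 values were no longer called without siControl replicate 2 for siTotal (-0.11) or without siControl replicate 1 for siLong (0.06). The siTotal values against mock were no longer called without mock replicate 2 for APAF1 (-0.11), BIK (-0.14) and BCL2L12 (0.13), nor without mock replicate 1 for XIAP (0.14). Leaving out other single libraries also ended some of these calls.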

How the results depend on the processing

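Of the 355 calls of a member in 1 of the 16 comparisons, 221 kept call and direction under every alternative run, and 95 were lost when 1 library was left out. Leaving out 1 library moved the siTotal against mock count from 21 to between 13 (without mock replicate 1) and 19. The other counts ranged from 17 to 21 for siTotal and 22 to 24 for siLong against siControl, 18 to 26 for siLong against mock, 16 to 22 for mock against siControl and 22 to 26 for siTotal against siLong. With each siRNA group as 1 replicate, edgeR called 0 members for siTotal (smallest adjusted p 1) and 0 for siLong (smallest 0.27) against siControl. The shares of all tested genes called that way were not counted. Sign changes are listed only for values called in the main fit, under the alternative, or in both. They were PMAIP1 0.25 and 0.15, and XIAP -0.0537 and -0.0468, for siLong with both controls as 1 group and with siRNA groups as replicates, CFLAR 0.32 for siLong with both controls as 1 group, and BOK 0.0066 and 0.0123 for siTotal under the same 2 settings. For siTotal against siLong1 alone, MCL1 (0.10), BCL2L11 (0.31) and CASP6 (0.36) changed sign, and this setting was added after seeing the data. The cause of each was not tested. Over all tested genes, deviations of replicate 1 from the group mean correlated weakly between groups (-0.085 to 0.099 over 15 pairs of groups). Such correlations cannot show whether some genes share a replicate effect. The replicate block changed the call of 4 member values, of which 1 was lost and 3 gained, and PMAIP1 was the one lost (siTotal1 against siControl). Alternatives were not run for the pathway genes. Low counts limit BMF, BCL2L15 and BCL2.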
